A study of Homo sapiens with 9 samples.

Results

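Chromatin writers, erasers and remodelers are the enzymes and complexes that place, remove or read chemical marks on histones and DNA, or that move nucleosomes. The genes were chosen by name and 57 of 57 were found among the 58929 genes of the count table. RNA was measured by poly(A)-selected RNA sequencing in FaDu cells, an established human cell line from a squamous cell carcinoma of the hypopharynx. The cells were treated with YKL-5-124 at 250 nM, samuraciclib at 250 nM or the vehicle DMSO, with 3 biological replicates per group and no genetic change in any of them. YKL-5-124 is a covalent and samuraciclib a reversible inhibitor of CDK7, a kinase that acts both on RNA polymerase II at the start of transcription and on the kinases that drive the cell cycle. The treatment protocol gives 48 h and the series design 72 h for the same libraries.

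Acetyltransferases add acetyl groups to histone tails, which are typical of active promoters and enhancers, and deacetylases take them off. Methyltransferases and demethylases do the same with methyl groups, whose meaning depends on the residue: methylation of lysine 4 of histone H3 goes with active genes, whereas that of lysine 27, made by the Polycomb complex PRC2, goes with silent ones. DNA methyltransferases keep cytosine methylation through each cell division, TET enzymes oxidise it, and the SWI/SNF and CHD remodelers use ATP to slide or evict nucleosomes. Loss-of-function mutations of several of these genes, among them *KMT2D* and *NSD1*, are known from head and neck squamous cell carcinoma.

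Libraries held between 18264302 and 24613892 counts with YKL-5-124, between 19346587 and 22111350 with samuraciclib and between 18096180 and 28018126 with DMSO. Of the 10 squamous epithelial markers all were tested, with summed levels of 11434 to 12244 CPM (counts scaled to a common library total) with YKL-5-124, 12145 to 12799 CPM with samuraciclib and 11120 to 11469 CPM with DMSO. The leukocyte markers summed to at most 0.468 CPM in any library, and the fibroblast markers to at most 6.12 CPM, with *LUM* at 0. The endothelial markers summed to 25.5 to 28.4 CPM with YKL-5-124, 20.04 to 23.8 CPM with samuraciclib and 29.99 to 32.1 CPM with DMSO, mostly from *CDH5*, with *KDR* at 0. *RN7SL2*, a 7SL RNA, was at 24.9 to 59.3 CPM in 1 library of each group (YKL-5-124 2, samuraciclib 2 and DMSO 3) and at 696 to 981 CPM in the other 6. Levels of *CDK7* itself lay between 68.5 and 86.3 CPM in the 9 libraries. The 16 S phase genes summed to 2267 to 2345 CPM with YKL-5-124, 2357 to 2435 CPM with samuraciclib and 3429 to 3558 CPM with DMSO, and the 14 G2/M genes to 2744 to 2925, 2849 to 2911 and 3917 to 4044 CPM in the same order. From the RNA of whole cultures alone, fewer cells in a phase and less RNA per cell cannot be told apart. By flow cytometry, the paper reports that samuraciclib made cells accumulate in G2/M in every line of its main panel, which includes FaDu. For YKL-5-124 it reports accumulation in S and/or G2/M, depending on the line. The part of the cell cycle genes in the results given here was not tested.

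Promoters are shown first because several of these genes are known targets of E2F, the transcription factor family that switches on genes for DNA replication. RefSeq (GRCh38.p14) promoter sequences, from 250 bases before to 50 bases after the start, were matched to 50 of the 57 genes. The E2F letters TTTCCCGC, TTTGGCGC or TTTCGCGC occurred on either strand in 4 of these 50 (8.0%) and in 763 of all 27305 promoters (2.79%). The 4 promoters are printed 5′ to 3′ along the strand of the gene in windows of 60 bases, with the 8 matching letters in capitals. *DNMT1* (chr19:10194942-10195001, minus strand), which holds them on the opposite strand, and *EZH2* (chr7:148884280-148884339, minus strand) carry them at the start itself, *NSD2* (chr4:1871290-1871349, plus strand) and *SUZ12* (chr17:31936792-31936851, plus strand) further upstream. The RefSeq starts are not always those of the deposited gene models.
DNMT1: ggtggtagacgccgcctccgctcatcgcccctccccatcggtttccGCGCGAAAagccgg
EZH2: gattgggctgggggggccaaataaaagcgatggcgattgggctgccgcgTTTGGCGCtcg
NSD2: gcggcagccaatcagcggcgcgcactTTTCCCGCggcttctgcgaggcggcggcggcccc
SUZ12: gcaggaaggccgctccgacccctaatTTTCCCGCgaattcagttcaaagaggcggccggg

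Beside them stand the 60 bases before the start of *HDAC3* (chr5:141636850-141636909, minus strand) and *KMT2D* (chr12:49060795-49060854, minus strand). Among the genes called lower against DMSO by the rule given below, these are the ones whose promoters held none of the letters searched. *HDAC5* is named only.
HDAC3: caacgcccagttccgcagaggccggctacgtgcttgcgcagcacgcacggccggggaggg
KMT2D: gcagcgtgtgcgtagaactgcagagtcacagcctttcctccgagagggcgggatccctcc

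The 4 genes with the E2F letters did not move by the same amount with YKL-5-124. The log2 fold change against DMSO was -0.58 for *DNMT1*, -0.29 for *NSD2*, -0.14 for *SUZ12* and -0.12 for *EZH2*, which did not pass the test. The cell cycle homology region (TTTGAA or TTCGAA) occurred in 6 of the 50 promoters (12%) and in 16.6% of all promoters, and CCAAT in 13 (26%) and 35.7%. No match of 1 kind overlapped a match of another kind in these promoters. These letters are a description of the sequence and not of binding.

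Few of the 57 genes changed with either inhibitor by the rule of an adjusted p under 0.05 in edgeR's quasi-likelihood test together with a log2 fold change beyond 0.5 either way. With YKL-5-124, 4 of 57 (7.02%) were called against DMSO, where 21.8% of all 16065 tested genes were called. *HDAC3*, *DNMT1* and *KMT2D* fell and *HDAC5* rose, where 9.93% of all genes were called lower and 11.9% higher. With library size as the only scaling, the balance of the 4 calls turned to 3 higher (*HDAC5*, *EZH1* and *KDM5B*) and 1 lower (*HDAC3*). With samuraciclib, 1 of 57 (1.75%) was called against DMSO, *HDAC3*, which fell, where 17.7% of all genes were called, 9.55% lower and 8.17% higher. Between YKL-5-124 and samuraciclib 1 gene was called, *HDAC5*, higher with YKL-5-124, where 6.92% of all genes were called, 4.46% higher and 2.46% lower. The comparisons of the inhibitors with DMSO share the DMSO libraries.

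**Figure D1:**
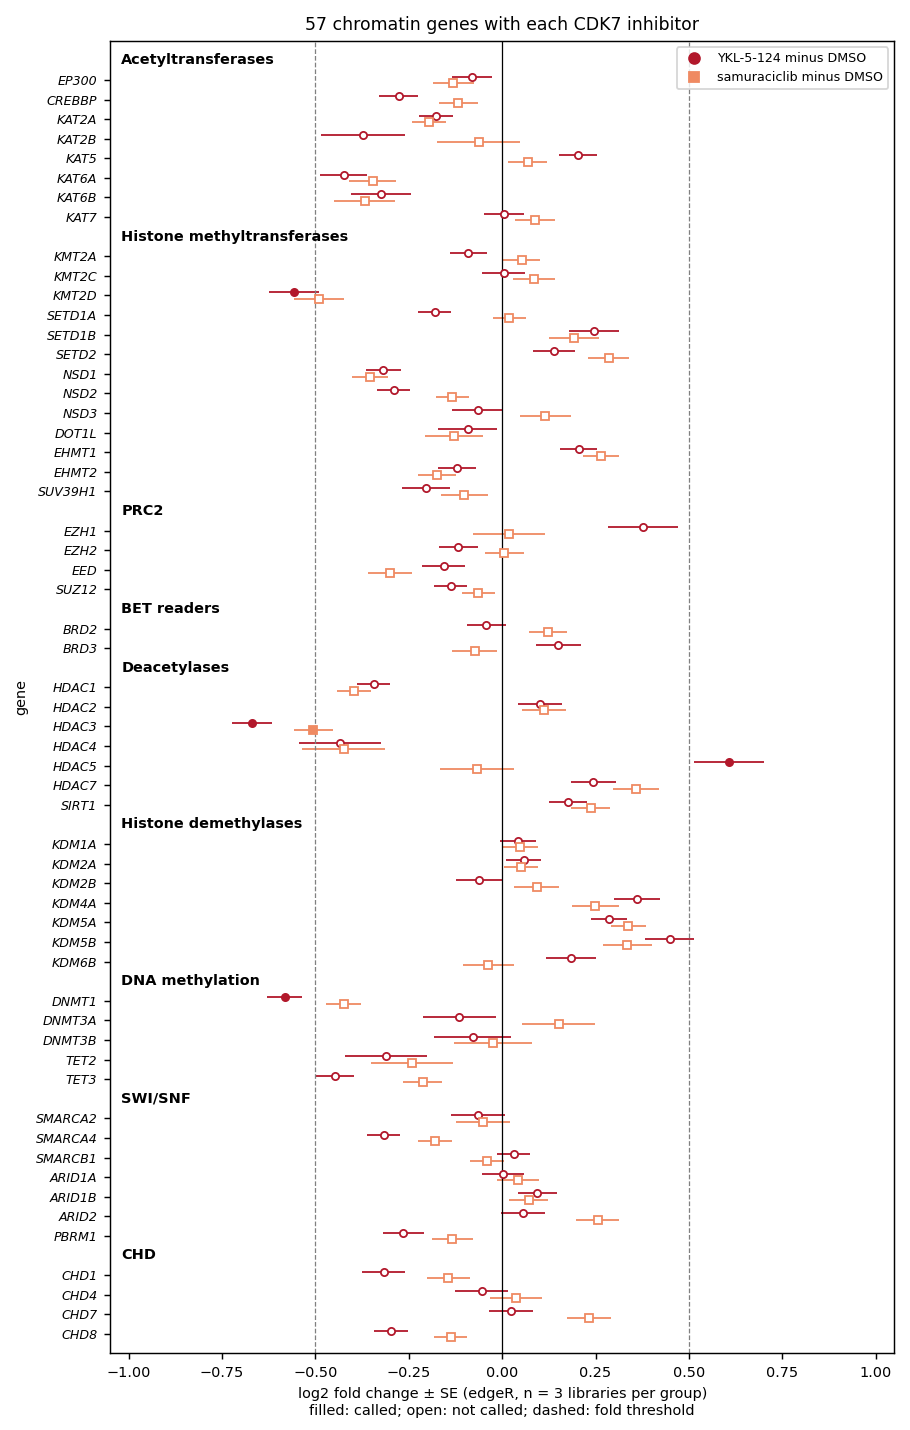
Log2 fold change (horizontal axis) with its standard error for the 57 genes, grouped by role, with YKL-5-124 (circles) and samuraciclib (squares) against DMSO, n = 3 libraries per group. Filled symbols are called genes and dashed lines the fold threshold of 0.5; 4 genes are filled for YKL-5-124 and *HDAC3* alone for samuraciclib.

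Small shifts were common. At an adjusted p under 0.05 without a fold threshold, 35 of the 57 genes differed between YKL-5-124 and DMSO, 13 higher and 22 lower, where 49.3% of all genes did, 24.1% higher and 25.2% lower. With samuraciclib 26 differed from DMSO, 10 higher and 16 lower, where 44.1% of all genes did, 21.0% higher and 23.1% lower. The 3 libraries of each group did not overlap for 39 genes with YKL-5-124, 14 higher and 25 lower (all genes: 56.8%, with 28.4% in each direction), and for 30 with samuraciclib, 12 higher and 18 lower (all genes: 52.9%). The 95% interval of the log2 fold change lay inside -0.5 to 0.5 for 46 genes with YKL-5-124, against 45.1% of all genes. With samuraciclib it did so for 52 genes, against 47.4% of all genes. The width of an interval also depends on the counts. These were at least 184 per library for each of the 57 and lower for some of the other tested genes. The median absolute log2 fold change was 0.18 over the 57 genes and 0.28 over all genes with YKL-5-124, and 0.13 and 0.26 with samuraciclib.

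The median log2 fold change of the 57 genes was -0.08 with YKL-5-124 and -0.04 with samuraciclib, where the medians of all genes were 0.01 and 0.00. With library size as the only scaling these medians turned to 0.05 and 0.02, while the median of all genes with YKL-5-124 moved to 0.14, so that a direction of the whole group holds only relative to the other genes. The share of higher genes among all genes called moved with that scaling as well, to 72.7% from 54.5% with YKL-5-124 and to 57.1% from 46.1% with samuraciclib.

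Per length, the most abundant of the 57 genes in DMSO was *HDAC1*, at 189 ± 7.31 length-scaled units (TPM; SD, n = 3), followed by *BRD2* at 149 ± 4.89, *DNMT1* at 148 ± 2.51 and *KAT2A* at 126 ± 6.71 TPM. *BRD2* and *DNMT1* did not differ beyond this spread. The lowest were *TET2* at 3.68, *DNMT3A* at 3.69 and *KAT6B* at 3.76 TPM. The median of the 57 genes was 29.3 TPM, and each had at least 184 counts in every library.

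Among the histone deacetylases, members rose and fell side by side. *HDAC3*, the catalytic subunit of the NCoR and SMRT corepressor complexes, was at 53.2, 57.4 and 52.2 CPM with YKL-5-124, at 59.7, 59.7 and 63.2 CPM with samuraciclib and at 85.6, 89.1 and 84.6 CPM with DMSO. Every library with an inhibitor was below every DMSO library. The gene (ENSG00000171720, chr5:141620876-141636870, minus strand) fell 1.59-fold with YKL-5-124 (log2 fold change -0.67 ± 0.05 SE, adjusted p = 1.06e-08) and 1.42-fold with samuraciclib (-0.51 ± 0.05 SE, adjusted p = 4.78e-07). The samuraciclib value lay at the fold threshold, and its call was lost without DMSO 2 (-0.48), samuraciclib 1 (-0.49) or samuraciclib 2 (-0.49). An opposite-strand gene model, *AC008781.1*, covers 35.0% of the span of *HDAC3* and had 0 to 8 counts.

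*HDAC5*, a class IIa deacetylase that shuttles between cytoplasm and nucleus, was at 16.8, 16.6 and 18.5 CPM with YKL-5-124, at 10.1, 10.6 and 12 CPM with samuraciclib and at 11.3, 11.5 and 11.3 CPM with DMSO. The YKL-5-124 libraries stood above all the others, while those of samuraciclib and DMSO overlapped. It rose 1.52-fold with YKL-5-124 against DMSO (log2 fold change 0.61 ± 0.09 SE, adjusted p = 3.3e-05) and was 1.6-fold higher with YKL-5-124 than with samuraciclib (0.67 ± 0.09 SE, adjusted p = 6.17e-05). Against DMSO the samuraciclib value was -0.07, with a 95% interval of -0.27 to 0.14. Its paralog *HDAC4*, of the same class, had 18.6, 17.4 and 17.1 CPM with YKL-5-124, 21.1, 14.1 and 18.3 CPM with samuraciclib and 22.4, 23.8 and 25.4 CPM with DMSO. *HDAC4* was lower with each inhibitor, by a log2 fold change of -0.43 with YKL-5-124 (adjusted p = 0.0032) and -0.42 with samuraciclib (adjusted p = 0.0044), inside the fold threshold. The samuraciclib value rested on single libraries: it was -0.57, and called, without samuraciclib 1, -0.28 without samuraciclib 2, and -0.23 (adjusted p = 0.0822) in the 6 libraries with high *RN7SL2*.

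*HDAC1*, a catalytic subunit of the Sin3, NuRD and CoREST complexes (ENSG00000116478, chr1:32292086-32333635, plus strand), had 165, 176 and 171 CPM with YKL-5-124, 160, 167 and 167 CPM with samuraciclib and 208, 224 and 218 CPM with DMSO. Every DMSO library was above every inhibitor library. The log2 fold change was -0.34 (adjusted p = 4.93e-06) with YKL-5-124 and -0.40 (adjusted p = 1.16e-06) with samuraciclib. Its close paralog *HDAC2*, which sits in the same complexes, was at 0.10 and 0.11 and did not pass (adjusted p = 0.17 and 0.14). *HDAC7* was higher with YKL-5-124 (0.24) and samuraciclib (0.36), as was the NAD-dependent deacetylase *SIRT1* (0.18 and 0.24), all at an adjusted p under 0.05. Of the 7 deacetylases 3 were higher and 3 lower than in DMSO with YKL-5-124, where 24.1% and 25.2% of all genes were, and 2 higher and 3 lower with samuraciclib, where 21.0% and 23.1% of all genes were.

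**Figure D2:**
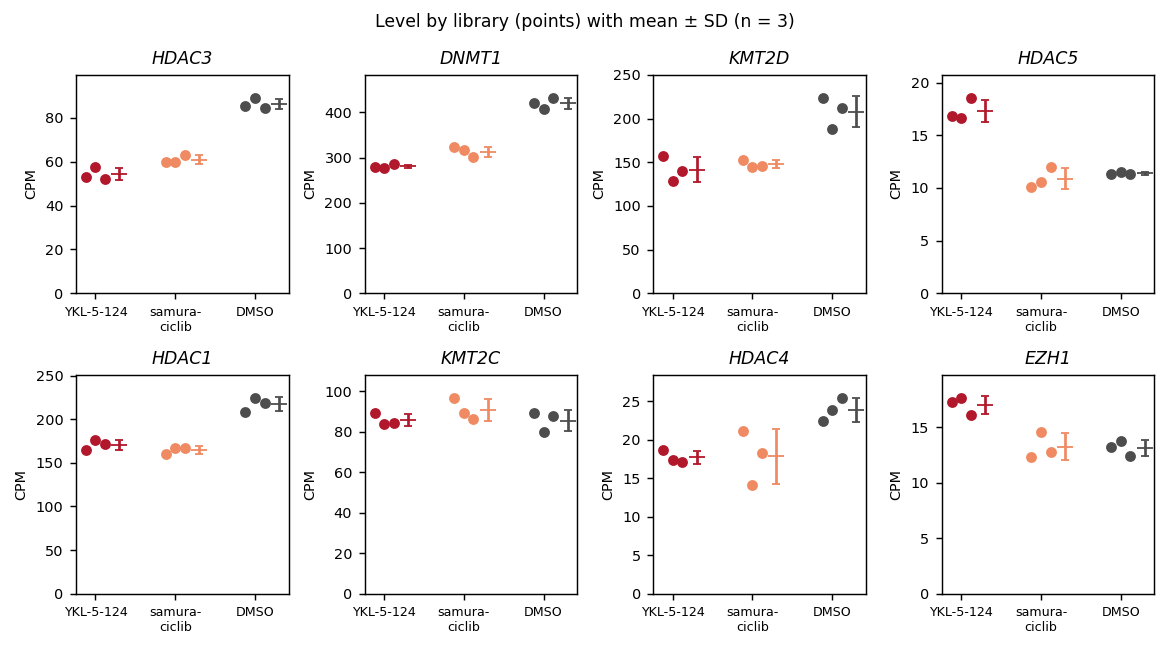
Level in CPM (vertical axis, from 0) of 8 genes in each library (points) with the mean and SD of the 3 libraries beside them, for YKL-5-124, samuraciclib and DMSO. *HDAC3*, *DNMT1*, *KMT2D*, *HDAC1* and *HDAC4* sit lower in all inhibitor libraries than in all DMSO libraries. *HDAC5* and *EZH1* stand apart with YKL-5-124, and *KMT2C* overlaps between groups.

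Of the 5 genes of DNA methylation, 3 were lower with YKL-5-124 and 2 with samuraciclib at an adjusted p under 0.05. Of all genes 25.2% and 23.1% were lower. None of the 5 was higher, where 24.1% and 21.0% of all genes were. *DNMT1*, the maintenance methyltransferase that copies methylation onto newly made DNA (ENSG00000130816, chr19:10133345-10231286, minus strand), was at 279, 278 and 285 CPM with YKL-5-124, at 323, 316 and 300 CPM with samuraciclib and at 421, 408 and 432 CPM with DMSO. The groups did not overlap, and YKL-5-124 gave the lowest levels. *DNMT1* fell 1.5-fold with YKL-5-124 (log2 fold change -0.58 ± 0.05 SE, adjusted p = 1.03e-08). With samuraciclib it was lower by a log2 fold change of -0.42 (adjusted p = 7.34e-07), inside the fold threshold. The *DNMT1* call with YKL-5-124 was lost with library size as the only scaling (-0.45).

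The de novo methyltransferases *DNMT3A* and *DNMT3B* had log2 fold changes of -0.11 and -0.08 with YKL-5-124 and did not pass with either inhibitor. Of the TET dioxygenases, which start the removal of DNA methylation, *TET3* (ENSG00000187605, chr2:73986404-74108176, plus strand) was at 76.8, 72.0 and 68.9 CPM with YKL-5-124, 88.1, 84.9 and 83.0 CPM with samuraciclib and 99.4, 95.7 and 102 CPM with DMSO. Here too the 3 groups did not overlap. Its log2 fold change was -0.45 (adjusted p = 1.27e-06) with YKL-5-124 and -0.21 (adjusted p = 0.00256) with samuraciclib. The median of the 5 genes was -0.31 with YKL-5-124 and -0.21 with samuraciclib, and stayed below 0 with library size alone (-0.18 and -0.15).

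Of the 7 histone demethylases, 4 were higher than in DMSO with YKL-5-124 and 3 with samuraciclib, at an adjusted p under 0.05. Of all genes 24.1% and 21.0% were higher. None of the 7 was lower with either inhibitor, where 25.2% and 23.1% of all genes were. None of the 7 was called in edgeR or in DESeq2, and the counts at an unadjusted p under 0.05 in edgeR were the same, 4 and 3. *KDM5A* and *KDM5B*, which erase lysine 4 methylation of histone H3, had log2 fold changes of 0.29 and 0.45 with YKL-5-124 and of 0.34 and 0.33 with samuraciclib. *KDM5B* was at 52.5, 47.8 and 46.2 CPM with YKL-5-124, 44.9, 48.0 and 42.2 CPM with samuraciclib and 35.5, 35.0 and 36.5 CPM with DMSO, so that the DMSO libraries were the lowest. With library size alone *KDM5B* was called with YKL-5-124 (0.58). *KDM4A*, which acts on lysines 9 and 36, was at 0.36 and 0.25, and the lysine 27 demethylase *KDM6B* was higher with YKL-5-124 only (0.18), with a value of -0.04 for samuraciclib. *KDM2A*, the most abundant demethylase per length, did not pass: it had 260, 256 and 254 CPM with YKL-5-124, 257, 256 and 253 CPM with samuraciclib and 237, 241 and 261 CPM with DMSO.

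Among the 13 histone methyltransferases outside PRC2, 3 were higher and 5 lower at an adjusted p under 0.05 with YKL-5-124 (all genes: 24.1% and 25.2%), and 3 higher and 4 lower with samuraciclib (all genes: 21.0% and 23.1%). *KMT2D*, which methylates lysine 4 of histone H3 at enhancers, was at 157, 128 and 140 CPM with YKL-5-124, at 153, 145 and 146 CPM with samuraciclib and at 224, 188 and 212 CPM with DMSO. Both inhibitors gave lower levels than any DMSO library. *KMT2D* fell 1.47-fold with YKL-5-124 (log2 fold change -0.56 ± 0.07 SE, adjusted p = 1.85e-06), and the samuraciclib value of -0.49 (adjusted p = 9.64e-06) lay just inside the fold threshold. The call with YKL-5-124 was lost without YKL-5-124 2 (-0.49), in the 6 libraries with high *RN7SL2* (-0.47) and with library size alone (-0.43), and *KMT2D* was called with samuraciclib without DMSO 2 (-0.56) or without samuraciclib 1 (-0.52).

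The paralog *KMT2C*, which shares this role, had 89.4, 83.9 and 84.2 CPM with YKL-5-124, 96.6, 89.4 and 86.2 CPM with samuraciclib and 89.2, 79.7 and 87.6 CPM with DMSO, with overlapping groups. Its log2 fold change was 0.00 with YKL-5-124, with a 95% interval of -0.12 to 0.12, and 0.09 with samuraciclib. *SETD1A*, a lysine 4 methyltransferase and the most abundant of the 13 per length, had 158, 147 and 149 CPM with YKL-5-124, 180, 171 and 171 CPM with samuraciclib and 173, 169 and 173 CPM with DMSO. It was lower with YKL-5-124 (-0.18, adjusted p = 0.0024) and did not pass with samuraciclib (0.02), whereas its paralog *SETD1B* was higher with each inhibitor (0.25 and 0.19).

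Members that write lysine 36 methylation did not move together. *NSD1* was lower with YKL-5-124 (-0.32) and samuraciclib (-0.35), and *NSD2* likewise (-0.29 and -0.13), while *SETD2*, which makes the trimethyl form along transcribed genes, was higher (0.14 and 0.29). *NSD3* did not pass with either. Of the lysine 9 methyltransferases, *EHMT1* was higher with each inhibitor (0.20 and 0.26), *EHMT2* was lower with samuraciclib (-0.17) and *SUV39H1* lower with YKL-5-124 (-0.20).

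In PRC2, *EZH2*, its main catalytic subunit in dividing cells, did not pass with either inhibitor (-0.12 and 0.01). *EZH1*, the alternative catalytic subunit, had 17.3, 17.6 and 16.1 CPM with YKL-5-124, 12.4, 14.6 and 12.8 CPM with samuraciclib and 13.2, 13.8 and 12.4 CPM with DMSO. All YKL-5-124 libraries were above the rest. The log2 fold change was 0.38 with YKL-5-124 (adjusted p = 0.0026) and 0.02 with samuraciclib (adjusted p = 0.9). With library size alone *EZH1* was called with YKL-5-124 (0.51). The scaffold subunit *SUZ12*, the most abundant of the 4 per length, had 148, 146 and 138 CPM with YKL-5-124, 153, 151 and 151 CPM with samuraciclib and 153, 161 and 161 CPM with DMSO. It was lower with YKL-5-124 (-0.14, adjusted p = 0.015), and *EED*, which reads the lysine 27 mark, was lower with each inhibitor (-0.16 and -0.30).

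Of the 8 acetyltransferases, 5 were lower and 1 higher with YKL-5-124, and 3 lower and none higher with samuraciclib, at an adjusted p under 0.05. Of all genes 25.2% were lower and 24.1% higher with YKL-5-124, and 23.1% lower and 21.0% higher with samuraciclib. None of the 8 was called in edgeR or in DESeq2, and at an unadjusted p under 0.05 edgeR gave 5 lower and 1 higher with YKL-5-124, and 5 lower with samuraciclib. The median log2 fold change was -0.23 with YKL-5-124 and -0.12 with samuraciclib, and -0.10 and -0.07 with library size alone. *KAT2A*, the acetyltransferase of the SAGA complex and the most abundant of the 8 per length, had 124, 118 and 123 CPM with YKL-5-124, 120, 120 and 121 CPM with samuraciclib and 142, 139 and 132 CPM with DMSO. It was lower by -0.18 and -0.20 on the log2 scale. *KAT6A* and *KAT6B*, related enzymes of the MYST family, were lower with YKL-5-124 (-0.42 and -0.33) and with samuraciclib (-0.35 and -0.37). Of the coactivator pair, *CREBBP* was lower with YKL-5-124 (-0.28), and *EP300* did not pass with either (-0.08 and -0.13). *KAT5*, the catalytic subunit of the TIP60 complex, was higher with YKL-5-124 (0.20), but 73.6% of its span is shared with *RNASEH2C* on the opposite strand, which had 2835 to 4945 counts, and the strand setting of the counting is not stated.

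The BET proteins *BRD2* and *BRD3* bind acetylated histones. *BRD2* had 309, 320 and 294 CPM with YKL-5-124, 336, 362 and 337 CPM with samuraciclib and 309, 306 and 335 CPM with DMSO, and passed with neither inhibitor against DMSO (-0.04 and 0.12). *BRD3* was higher with YKL-5-124 (0.15, adjusted p = 0.044) and at -0.07 with samuraciclib.

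Of the 7 SWI/SNF genes 2 were lower at an adjusted p under 0.05 with YKL-5-124 (all genes: 25.2%), and 1 was higher and 1 lower with samuraciclib (all genes: 21.0% and 23.1%). *SMARCA4*, the main ATPase and the most abundant of the 7 per length, had 132, 127 and 129 CPM with YKL-5-124, 141, 140 and 146 CPM with samuraciclib and 158, 157 and 167 CPM with DMSO. The groups did not overlap, and the log2 fold change was -0.32 (adjusted p = 1.1e-05) with YKL-5-124 and -0.18 (adjusted p = 0.0028) with samuraciclib. The alternative ATPase *SMARCA2* was at -0.06 and -0.05. The core subunit *SMARCB1* and the DNA-binding subunits *ARID1A* and *ARID1B* lay between -0.04 and 0.09 in both comparisons with DMSO and did not pass. *PBRM1* was lower with YKL-5-124 (-0.27) and *ARID2*, which sits with it in the PBAF form, was higher with samuraciclib (0.26).

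Of the 4 CHD remodelers 2 were lower with YKL-5-124 (all genes: 25.2%), and 2 were lower and 1 higher with samuraciclib (all genes: 23.1% and 21.0%). *CHD1*, which follows elongating polymerase and is the most abundant per length, had 105, 112 and 100 CPM with YKL-5-124, 120, 127 and 110 CPM with samuraciclib and 130, 128 and 137 CPM with DMSO. Its log2 fold change was -0.32 (adjusted p = 0.00016) with YKL-5-124 and -0.14 (adjusted p = 0.048) with samuraciclib. *CHD8* was similar in size (-0.30 and -0.14), *CHD7* was higher with samuraciclib (0.23) and at 0.02 with YKL-5-124, and *CHD4*, the ATPase of the NuRD complex, was at -0.06 and 0.04. A same-strand gene model, *AC006064.6*, covers 83.9% of the span of *CHD4* and had 0 to 2 counts. In all, 7 of the 57 genes had another model over at least 50% of their span, 3 of them on the same strand.

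**Figure D3:**
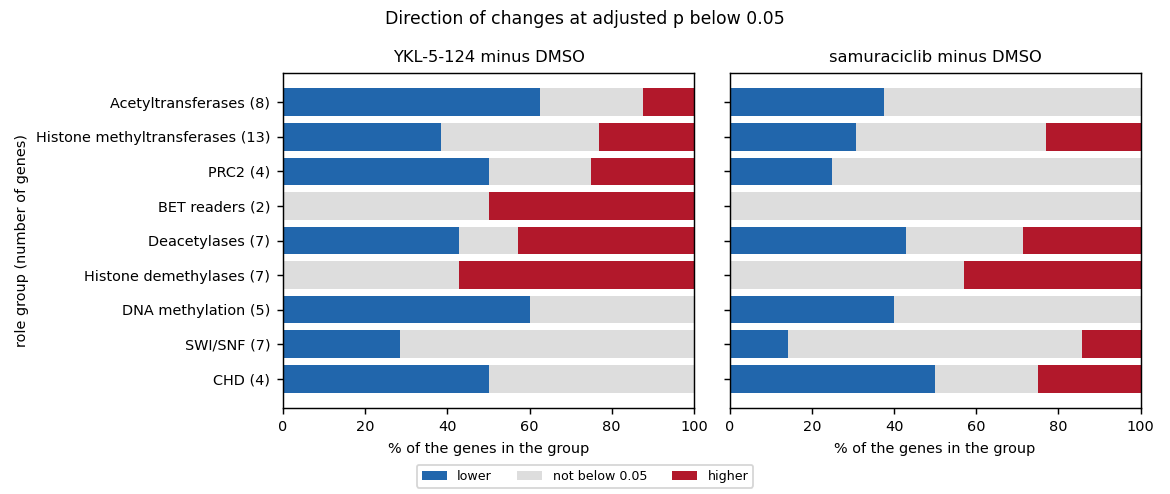
Share of the genes of each role group (horizontal bars, in % of the genes) that were lower, not below the threshold or higher at an adjusted p under 0.05, with YKL-5-124 (left) and samuraciclib (right) against DMSO. Demethylases and BET readers hold no lower gene and DNA methylation no higher gene in either panel. Of all genes 25.2% and 23.1% were lower and 24.1% and 21.0% higher, with YKL-5-124 and samuraciclib.

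Balance within pairs of related genes was read as the ratio of their CPM in the same library, which does not depend on the scaling. Among 18 pairs, the 3 libraries of each group did not overlap in 12 pairs for YKL-5-124 against DMSO, in 7 for samuraciclib against DMSO and in 12 for YKL-5-124 against samuraciclib. Taken as single genes, 56.8%, 52.9% and 38.7% of all genes did not overlap, in the same order. Ratios of other gene pairs were not computed, so the counts show no trait of these pairs. With 3 libraries against 3, the exact two-sided permutation test cannot go below p = 0.1, and over the 54 tests no adjusted p was below 0.174. The ratio of *HDAC5* to *HDAC4* was 0.902, 0.955 and 1.09 with YKL-5-124, 0.476, 0.751 and 0.654 with samuraciclib and 0.506, 0.483 and 0.445 with DMSO. It was 2.05-fold higher with YKL-5-124 than with DMSO, while the samuraciclib and DMSO libraries overlapped (1.29-fold). For *KMT2C* over *KMT2D* it was 0.571, 0.655 and 0.601 with YKL-5-124, 0.631, 0.617 and 0.589 with samuraciclib and 0.399, 0.423 and 0.412 with DMSO. Thus *KMT2C* gained weight against *KMT2D* in every inhibitor library, by 1.48-fold with YKL-5-124 and 1.49-fold with samuraciclib.

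*HDAC2* over *HDAC1* was 1.32, 1.46 and 1.28 with YKL-5-124, 1.46, 1.43 and 1.36 with samuraciclib and 0.976, 0.995 and 1.01 with DMSO. *EZH1* over *EZH2* was 0.285, 0.301 and 0.285 with YKL-5-124, 0.196, 0.224 and 0.202 with samuraciclib and 0.216, 0.210 and 0.194 with DMSO, so that the samuraciclib and DMSO libraries overlapped. *BRD3* over *BRD2* was 0.298, 0.286 and 0.325 with YKL-5-124, 0.237, 0.204 and 0.254 with samuraciclib and 0.266, 0.258 and 0.268 with DMSO. This was the pair whose YKL-5-124 libraries all lay above and whose samuraciclib libraries all lay below DMSO.

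**Figure D4:**
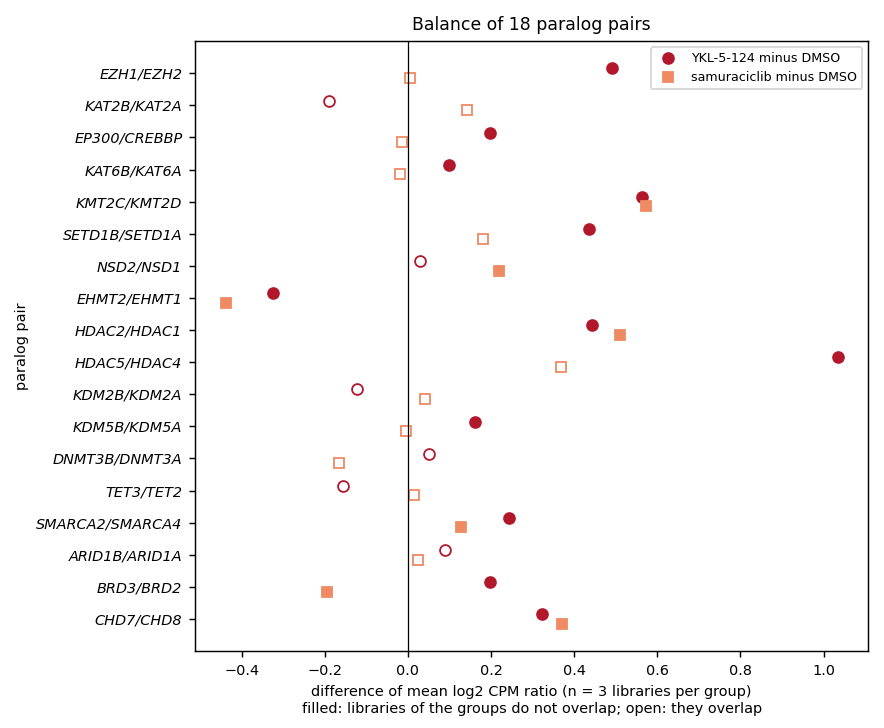
Difference from DMSO in the mean log2 ratio of CPM within each of 18 pairs (horizontal axis), with YKL-5-124 (circles) and samuraciclib (squares), n = 3 libraries per group. Filled symbols mark pairs whose libraries do not overlap with DMSO; *HDAC5*/*HDAC4* lies farthest out, at 1.03 with YKL-5-124.

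Set directly against each other at the same dose, the inhibitors differed little in size over these genes. The median absolute log2 fold change was 0.11, where that of all genes was 0.17. At an adjusted p under 0.05, 17 of 57 genes (29.8%) differed, where 24.9% of all genes did. With YKL-5-124, 4 were higher (7.02%) and 13 lower (22.8%) than with samuraciclib, where 11.8% of all genes were higher and 13.2% lower. The libraries of the inhibitors did not overlap for 27 genes, 7 higher and 20 lower with YKL-5-124 (all genes: 38.7%, with 19.5% higher and 19.2% lower). The count at an adjusted p under 0.05, 17 in all 9 libraries, was 11 in the 6 libraries with high *RN7SL2*. It was 7 without YKL-5-124 3 and 8 without samuraciclib 1. Of all 16065 genes, 4003 differed in all 9 libraries and 3384 in the 6 libraries. Without YKL-5-124 3 it was 3107 of all genes, and without samuraciclib 1 it was 2842. In none of these smaller sets was the share of the 57 genes above that of all genes. The 95% interval lay inside -0.5 to 0.5 for 54 genes (all genes: 57.9%), the other 3 being *HDAC5*, *EZH1* and *KAT2B*. The 4 higher genes were *HDAC5*, *EZH1* (0.36, 95% interval 0.16 to 0.56), *BRD3* (0.22, 0.10 to 0.35) and *KDM6B* (0.22, 0.08 to 0.36).

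The 13 lower genes were small in size, from -0.23 for *TET3* to -0.14 for *SMARCA4* and *KMT2A*. *HDAC3* and *DNMT1* were both at -0.16 (adjusted p = 0.0345 and 0.0189), lower with YKL-5-124 than with samuraciclib. *KMT2D* did not pass, with a difference of -0.07 and a 95% interval of -0.21 to 0.08. The median over the 57 genes was -0.07, where that of all genes was 0.01; with library size alone the 2 medians were 0.00 and 0.08, and the share of higher genes among all genes called was 79.5% in place of 64.5%.

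**Figure D5:**
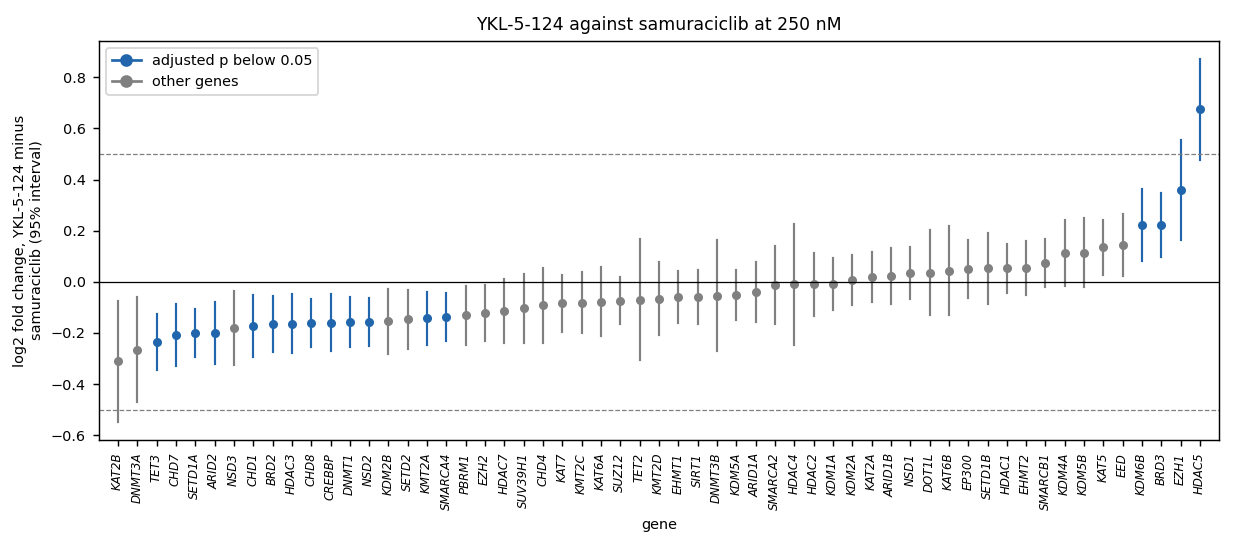
Log2 fold change of YKL-5-124 minus samuraciclib with its 95% interval (vertical axis) for the 57 genes in rank order, n = 3 libraries per group. Blue marks an adjusted p under 0.05 and dashed lines 0.5 either way; only *HDAC5*, at 0.67, lies beyond them.

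Other genes of the same machinery were read from a list of 81, all of them tested. With YKL-5-124 3 of these were called higher and 6 lower against DMSO (11.1%), where 21.8% of all genes were called, 11.9% higher and 9.93% lower. With samuraciclib 2 were called higher and 6 lower (9.88%), where 17.7% of all genes were called, 8.17% higher and 9.55% lower. *HELLS*, a remodeler that assists DNA methylation, was at 72.2, 71.6 and 72.3 CPM with YKL-5-124, 79.5, 82.1 and 83.6 CPM with samuraciclib and 115, 119 and 123 CPM with DMSO. It fell with each inhibitor (log2 fold change -0.73 and -0.54), as did *UHRF1*, which brings *DNMT1* to newly replicated DNA (-0.53 and -0.55). *UHRF1* had 215, 216 and 220 CPM with YKL-5-124, 225, 197 and 221 CPM with samuraciclib and 329, 291 and 320 CPM with DMSO. *HELLS* and *UHRF1* were named for their small adjusted p in these same data. That they lay lower in every inhibitor library than in every DMSO library is therefore no separate support for the fall of *DNMT1*. Groups did not overlap for 56.8% of all genes with YKL-5-124 and for 52.9% with samuraciclib.

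The cytoplasmic deacetylase *HDAC6* fell with YKL-5-124 (-0.57) and samuraciclib (-0.75), *MBD3*, a NuRD subunit, fell with YKL-5-124 (-0.70) and samuraciclib (-0.52). *KAT8*, the lysine 16 acetyltransferase of histone H4, fell with samuraciclib (-0.68), and its value with YKL-5-124 was -0.41 (adjusted p = 0.000154), inside the fold threshold. Between YKL-5-124 and samuraciclib edgeR called 0 of the 81, where 6.92% of all genes were called. At an adjusted p under 0.05 edgeR gave 8 higher and 18 lower of the 81, where 11.8% of all genes were higher and 13.2% lower. At an unadjusted p under 0.05, for which no share of all genes is given, it gave 15 higher and 26 lower. DESeq2 called 0.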

How the data were processed

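Per the labels, poly(A) RNA was sequenced in read pairs. By the study's methods, the authors aligned the reads to GRCh38 with HISAT2 and counted them on a GENCODE annotation; the submitters' processing notes name featureCounts 2.0.6. The deposited counts are whole numbers per gene without normalization; the annotation release and strand setting are not given in the sources used here. The deposited table also holds gene length, position and biotype, another kind of column, used as given.

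Of 58929 genes, 16065 passed filterByExpr, with all 57 chromatin genes among them. Counts were scaled with TMM and tested two-sided with edgeR 4.0.16 (glmQLFit, glmQLFTest) in 1 fit of 9 libraries, adjusted by Benjamini-Hochberg over all tested genes. Genes were called at an adjusted p under 0.05 and a log2 fold change beyond 0.5. CPM used TMM library sizes, and TPM was computed from the counts and the gene length of the table. The biological coefficient of variation was 0.0631, and the tests were tested on simulated data. Alternatives included DESeq2 1.42.0 and other scalings, filters and library sets.

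The genes and lists were chosen with earlier results of these data known. Values in every library are given for genes called, their paralogs and the most abundant gene per role, and of the 81 other genes for at most 4 called per comparison; positions are given for the 3 smallest adjusted p against DMSO. Values of further genes were added after they were seen. Replicate numbers were not used to pair the libraries in the main fit. R 4.3.3 was used.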

Additional observations from a re-analysis of the deposited data

How the results depend on the processing

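The counts of chromatin genes called depended on the fold threshold. Tested against that threshold itself (glmTreat), 1 gene was called for YKL-5-124 against DMSO, 0 for samuraciclib against DMSO and 0 for YKL-5-124 against samuraciclib. Of all 16065 tested genes, glmTreat called 1458, 982 and 71 in the same order. Without a fold threshold the counts were 35, 26 and 17, where those of all genes were 7919, 7087 and 4003. For samuraciclib against DMSO, the count was 0 with library size alone, 0 with a mean count of at least 50 and 0 when only the 2 groups compared were fitted, since *HDAC3* lies at the threshold. Among all genes these settings called 2841 of 16065, 2011 of 12029 and 2804 of 16065. Leaving out 1 library at a time gave 3 to 4 called genes for YKL-5-124, 0 to 2 for samuraciclib and 1 between the inhibitors. Among all 16065 genes it gave 3230 to 3536, 2625 to 2850 and 894 to 1092. The number with an adjusted p under 0.05 between the inhibitors was 7 to 19 without 1 library and 11 in the 6 libraries with high *RN7SL2*. Over all 16065 tested genes it was 2842 to 3962 and 3384. *HDAC3* kept its call with YKL-5-124 in 19 of 19 alternatives, and no called gene changed its direction in any of the alternatives. With the replicate number as a block, 4, 1 and 1 genes were called and 35, 28 and 20 had an adjusted p under 0.05. The counts of all genes were then 3494, 2825 and 1101 called and 8022, 7236 and 4169 with an adjusted p under 0.05. Deviations of same-numbered libraries from their group means correlated from -0.056 (DMSO 3 with YKL-5-124 3) to 0.17 (YKL-5-124 2 with samuraciclib 2). DMSO 3 correlated at 0.15 with YKL-5-124 2 and with samuraciclib 2, the other libraries with low *RN7SL2*. Whether the block marks a shared origin cannot be told from these values. Spearman's rho of change and gene length in place of gene span was -0.084 for YKL-5-124 against DMSO and -0.14 for YKL-5-124 against samuraciclib. At 184 counts or more per gene and library, depth limits mainly the least abundant genes, such as *KAT2B* and *HDAC5*. Why these counts differ beyond the thresholds themselves was not tested.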

Other observations

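The 57 chromatin genes are long, with a median genomic span of 78.3 kb, where all 12874 tested protein-coding genes have 33.3 kb. As a description across genes, which are not independent replicates and share the same libraries, Spearman's rho of span and log2 fold change was -0.14 over the 57 genes for YKL-5-124 against DMSO, 0.067 for samuraciclib against DMSO and -0.30 for YKL-5-124 against samuraciclib. Over all tested protein-coding genes it was 0.034, 0.15 and -0.16.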
